A study of Mus musculus with 45 samples.

Results

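Elastic fibres and microfibrils were examined through 10 genes of mouse heart, Eln, Fbn1, Fbn2, Fbln1, Fbln2, Fbln5, Mfap2, Mfap4, Mfap5 and Lox. The genes were chosen by name as the core protein, scaffold, linkers and cross-linking enzyme of elastic fibres, out of 23284 gene symbols listed in each expression file. All 10 were listed. The series holds 45 samples of heart tissue, of which 6 are poly(A) RNA-seq libraries and 39 are chromatin or input libraries that were not analysed here. Adult heart had 2 libraries, and embryonic heart at stage E12.5, E12.5 heart with the genotype label Gata4 KO, heart after banding and heart after a sham operation had 1 each. Banding is an operation that constricts a large artery so that the heart pumps against more pressure. The labels name neither the vessel nor the time after surgery, and give no strain, sex or age in weeks.

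Several limits of these groups come from the labels. The alleles Gata4fbio, Rosa26BirA, cTNTcre and Gata4flox are named for the series as a whole, without saying which library carries which. The cTNT promoter is that of cardiac troponin T, a gene of heart muscle cells. The RNA of each library was pooled, and nothing says whether the 2 adult libraries came from separate pools, so the spread between them may be technical. Every group other than adult has 1 library and no replicate check. The labelled knockout did not hold less Gata4 over the whole gene, with a level of 6.13 against 5.93 in E12.5. With 1 value per gene symbol, this level cannot show a deletion of part of the gene or in some cells only. It therefore does not check the label. Directions drawn from the labelled knockout rest on its label.

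Elastic fibres give vessel walls, valves and the heart's connective tissue their recoil. Elastin, encoded by Eln, is secreted as a soluble monomer, laid down on a scaffold of microfibrils and cross-linked through its lysines by lysyl oxidase. Microfibrils are polymers of fibrillins, to which small glycoproteins of the MAGP group attach, and they also hold growth factors of the TGF-beta family in latent form. Fibulins link elastin, microfibrils and cells. In the heart these proteins are mainly products of fibroblasts, smooth muscle cells and valve and endocardial cells, not of muscle cells. In bulk tissue, fewer cells of a type and less RNA per cell cannot be told apart.

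Levels are given as log2(FPKM + 1), where FPKM counts fragments relative to transcript length and to all mapped reads of the library, and they rest on 12086929 to 21056784 mapped reads per library. Reads on listed genes made up 75.9% to 83.9% of mapped reads in the adult and E12.5 libraries, 58.0% in banding and 55.6% in sham. The ribosomal RNA precursor Rn45s took 4.66% and 4.57% of mapped reads in banding and sham and at most 0.287% elsewhere. Shares of this kind enter FPKM through its denominator, whereas ratios between genes of 1 library do not use it. Heart muscle markers were present in all 6 libraries, with Tnnt2 between 2490 and 13193 FPKM and Ryr2, the lowest of them, between 14.8 and 231 FPKM. Cartilage and lung markers were low, with Matn1 and Scgb1a1 at 0 in all of these libraries. The highest value among them was that of the cartilage marker Sox9 in the labelled knockout, at 4.12 FPKM. Set against each other, the adult libraries differed 2-fold or more, at 5 FPKM or more in the higher, for 0.349% of all genes measured. Of the 10 genes 4 reached 5 FPKM there, and none of these differed by that much. Mfap2, below that level, differed 4.09-fold on 2 and 8 reads, with a counting interval of 0.815 to 39.5.

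**Figure D1:**
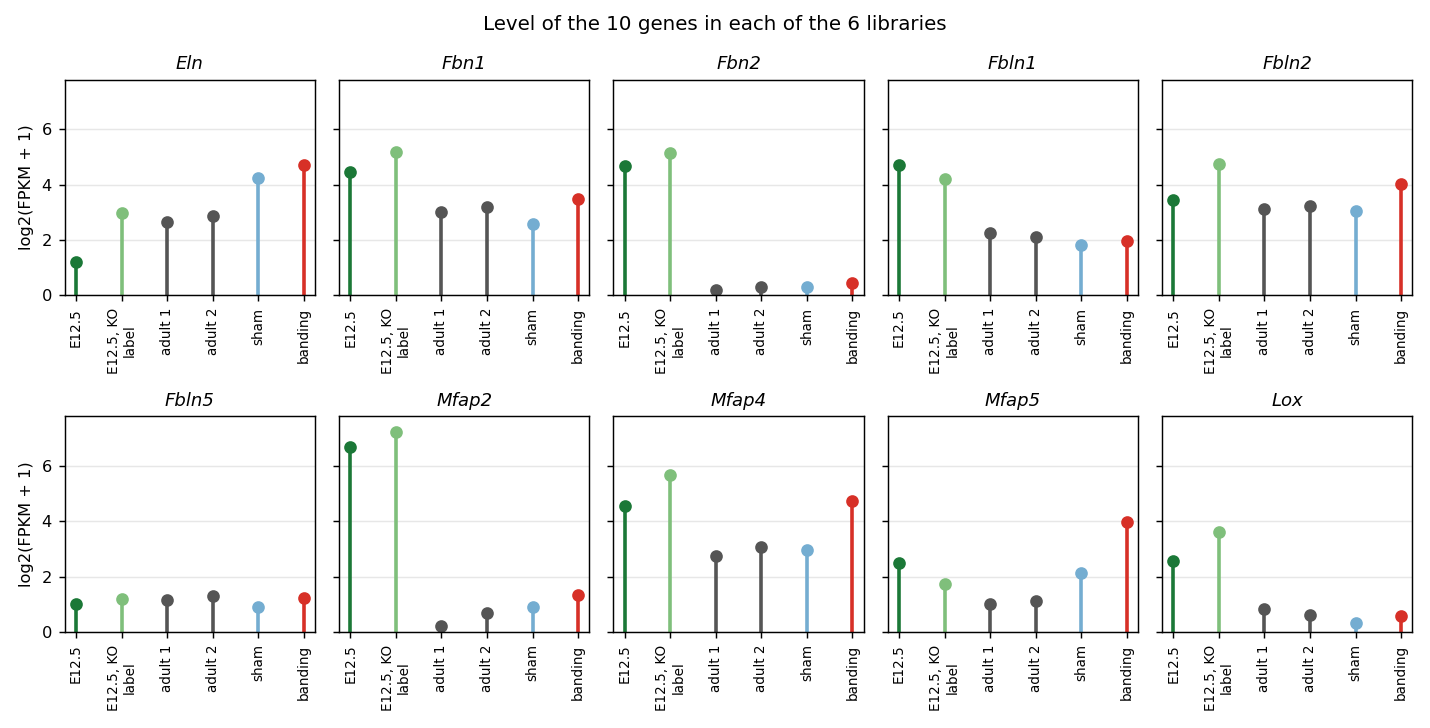
Level of each gene, as log2(FPKM + 1), in the 6 libraries. Each point is 1 library, and the library at E12.5 with the Gata4 KO label is marked KO label. Fbn2 and Mfap2 stood at 4.69 to 7.22 in the 2 libraries from E12.5 and at 0.17 to 1.33 in the other 4, Eln was highest in banding and sham, and Fbln5 stayed between 0.90 and 1.28.

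The core protein and the scaffold had unlike patterns. Eln stood at 1.21 in E12.5, 2.97 in the labelled knockout, 2.66 and 2.86 in adult, 4.25 in sham and 4.73 in banding. It was thus lowest in E12.5 and highest in the operated hearts. The labelled knockout lay just above the adult pair as deposited, but below it after upper-quartile scaling, at 4.73 FPKM against 5.09 and 5.86, and after median-of-ratios scaling. Among all 23284 listed genes Eln ranked 11209 in E12.5 and 6753 in the labelled knockout. In adult it ranked 5945 and 5505, in sham 1459 and in banding 1141, an order that does not depend on scaling between libraries. The reads behind these values ranged from 104 in E12.5 to 1349 in banding.

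Of the fibrillins, Fbn1 makes the microfibrils of adult tissues and Fbn2 mainly those of developing ones. Fbn1 stood at 4.45 in E12.5, 5.18 in the labelled knockout, 3.01 and 3.19 in adult, 2.57 in sham and 3.48 in banding. Fbn2 stood at 4.69, 5.16, 0.17 and 0.30, 0.31 and 0.45 in the same order, with 5477 reads in E12.5 and 17 and 30 in adult. As deposited, both were higher in the libraries from E12.5 than in the other 4, with no overlap, and the gap was wider for Fbn2. After upper-quartile scaling Fbn1 overlapped, with banding at 15.4 FPKM above E12.5 at 14.1. Within a library the ratio of Fbn2 to Fbn1 in FPKM was 1.19 in E12.5 (95% counting interval 1.15 to 1.24) and 0.986 in the labelled knockout (0.952 to 1.02). It was 0.0182 and 0.0286 in adult, 0.0478 in sham (0.0320 to 0.0690) and 0.0361 in banding (0.0270 to 0.0473). Fbn2 was therefore about as abundant as Fbn1 per length in the embryonic libraries and a minor fibrillin transcript in the others.

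The glycoproteins MAGP-1, from Mfap2, and MAGP-2, from Mfap5, both bind fibrillins. Mfap2 was the most abundant of the 10 genes in both libraries from E12.5, at 6.71 and 7.22 in the labelled knockout. It stood at 0.20 and 0.68 in adult, 0.88 in sham and 1.33 in banding, on only 2, 8, 11 and 23 reads. Mfap5 went another way. It stood at 2.50 in E12.5, 1.73 in the labelled knockout, 1.01 and 1.10 in adult, 2.14 in sham and 3.99 in banding, so that banding was the highest library. In FPKM, Mfap2 exceeded Mfap5 22.3-fold in E12.5 (18.8 to 26.7) and 64.1-fold in the labelled knockout (49.5 to 84.7). The ratio was 0.145 and 0.522 in adult, 0.248 in sham and 0.102 in banding, and the interval of adult replicate 2, 0.199 to 1.24, reached above 1.

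**Figure D2:**
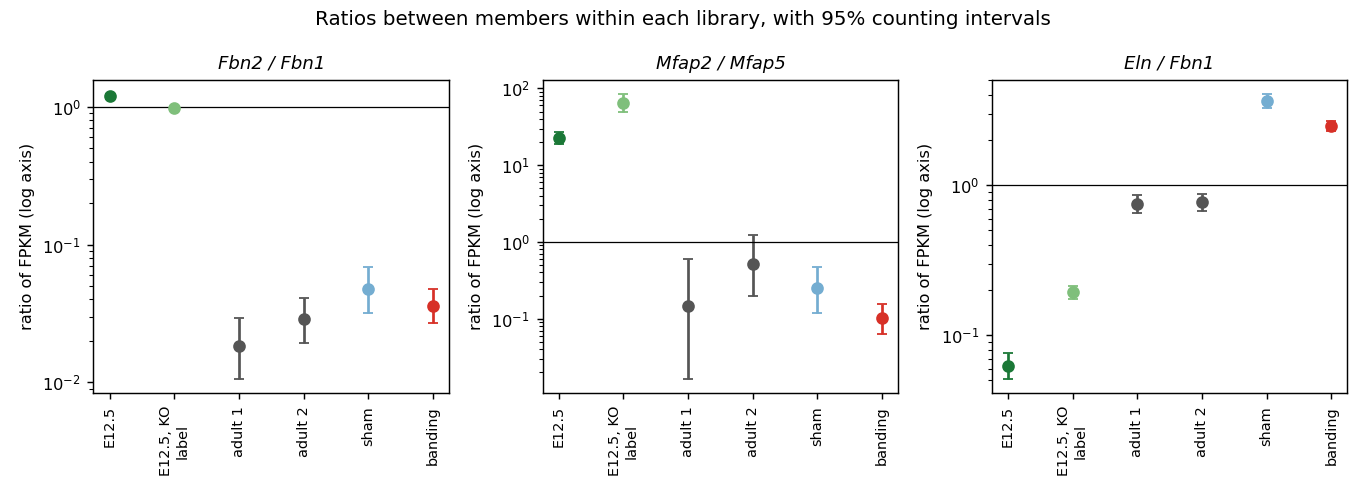
Ratio of FPKM between pairs of the genes within each library, on a log axis, with 95% counting intervals. Fbn2 to Fbn1 was 1.19 in E12.5 and under 0.05 in adult, sham and banding, Mfap2 to Mfap5 was 22.3 and under 1, and Eln to Fbn1 was 0.0627 in E12.5 and 3.65 in sham.

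Promoter sequence is shown for members of the scaffold that were high together at E12.5 and for Fbln1, which was also high there but lower in the labelled knockout. RefSeq's table of GRCm38.p6 holds 5 of the 10 genes, Fbln1, Fbln2, Fbln5, Fbn1 and Mfap2, and not Eln, Fbn2, Lox, Mfap4 or Mfap5. The bases before the most upstream start are given 5′ to 3′ on the gene's strand, without any base inside the annotated gene. Mfap2 lies on the plus strand at chr4:141010174-141010423, Fbln1 on the plus strand at chr15:85205699-85205948, and Fbn1 on the minus strand at chr2:125506486-125506688. Capitals mark matches, on either strand, to the motifs searched. These were the TATA box TATAAA, the GATA words GATAAG and, able to overlap it, AGATAA, the GC box GGGCGG, the AP-1 word TGANTCA, the Smad word CAGACA, the TEAD word GGAATG and the CArG box. On the other strand CAGACA reads as TGTCTG.
Mfap2: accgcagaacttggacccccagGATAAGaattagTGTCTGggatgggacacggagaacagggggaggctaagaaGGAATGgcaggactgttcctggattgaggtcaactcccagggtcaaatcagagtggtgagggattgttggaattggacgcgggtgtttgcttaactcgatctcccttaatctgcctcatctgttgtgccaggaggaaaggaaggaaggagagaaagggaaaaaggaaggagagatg
Fbln1: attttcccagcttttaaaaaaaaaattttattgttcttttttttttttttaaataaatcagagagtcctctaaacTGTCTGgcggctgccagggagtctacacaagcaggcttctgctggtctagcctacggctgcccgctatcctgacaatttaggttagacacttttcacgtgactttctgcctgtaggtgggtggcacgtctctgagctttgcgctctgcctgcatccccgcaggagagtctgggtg
Fbn1: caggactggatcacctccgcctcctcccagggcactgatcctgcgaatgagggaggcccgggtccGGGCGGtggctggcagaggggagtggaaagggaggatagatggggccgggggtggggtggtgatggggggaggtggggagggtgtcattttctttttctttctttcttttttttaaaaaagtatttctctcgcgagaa

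The search covered the 250 bases before the start of each of the 5 genes. For Fbn1 the bases nearest the start lie inside the annotated gene, so 203 of the 250 are printed. GATAAG, a word that GATA factors can bind, matched in Mfap2 alone among the 5, starting 228 bases before the gene's start. The same word occurred in 6.58% of 27025 promoters of this length. CAGACA, which holds the core that Smad proteins bind, matched in Mfap2 and Fbln1, against 17.1% of promoters. GGAATG, a word of TEAD factors, matched in Mfap2, against 12.6%. The GC box GGGCGG matched in Fbn1, Fbln2 and Fbln5, against 33.0%. The TATA box, the second GATA word, the AP-1 word and the CArG box matched in none of the 5, and occurred in 13.0%, 10.2%, 6.85% and 1.41% of promoters. A match is a run of letters and no evidence of binding.

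The other glycoprotein, Mfap4, is a fibrinogen-related protein that binds elastin and fibrillin. Mfap4 stood at 4.56 in E12.5, 5.68 in the labelled knockout, 2.73 and 3.08 in adult, 2.96 in sham and 4.74 in banding. As deposited, banding and both libraries from E12.5 were high, and adult and sham were low. After upper-quartile scaling banding was highest, at 38.8 FPKM against 34.9 in the labelled knockout.

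The 3 fibulins differed from each other. Fbln1, whose product binds elastin and basement membranes, stood at 4.70 in E12.5, 4.20 in the labelled knockout, 2.26 and 2.10 in adult, 1.82 in sham and 1.96 in banding. Fbln2, known from valves and vessel walls, stood at 3.43, 4.74, 3.11 and 3.23, 3.06 and 4.01 in the same order. For Fbln1 the libraries from E12.5 lay above the rest without overlap, while for Fbln2 banding lay above E12.5. After upper-quartile scaling Fbln2 was lowest in E12.5, at 6.62 FPKM, and highest in banding, at 22.9 FPKM. Fbln5, whose product carries elastin onto microfibrils, ranged as deposited from 0.90 in sham to 1.28 in adult replicate 2. This was the narrowest range of the 10 genes, at 0.38, with 61 to 135 reads per library. After upper-quartile scaling Fbln5 was instead lowest in E12.5, at 0.69 FPKM, and highest in banding, at 1.98 FPKM.

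Lox, the lysyl oxidase that cross-links elastin and collagen, stood at 2.55 in E12.5 and 3.62 in the labelled knockout. It stood at 0.82 and 0.62 in adult, 0.32 in sham and 0.56 in banding, on 35, 24, 11 and 24 reads. Lox was thus highest in both libraries from E12.5 and lowest in sham.

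Taking the 10 genes as a whole, their summed FPKM was 218 in E12.5, 334 in the labelled knockout, 32.7 and 37.4 in adult, 45.3 in sham and 97.9 in banding. These sums are as deposited and depend on the scaling between libraries. Upper-quartile scaling divides FPKM by 1.47 in E12.5 and by 0.660 in banding, which leaves the sums of E12.5 and banding about equal. Shares within a library do not depend on it. Mfap2 made up 47.4% of the sum in E12.5 and 44.4% in the labelled knockout. In adult the leading genes were Fbln2, with 23.3% and 22.4%, and Fbn1, with 21.6% in each library. Sham was led by Eln with 39.9%, and banding by Mfap4 with 26.2% and Eln with 26.0%. Lox made up 2.23% in E12.5, 3.39% in the labelled knockout, 2.36% and 1.44% in adult, 0.558% in sham and 0.485% in banding.

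**Figure D3:**
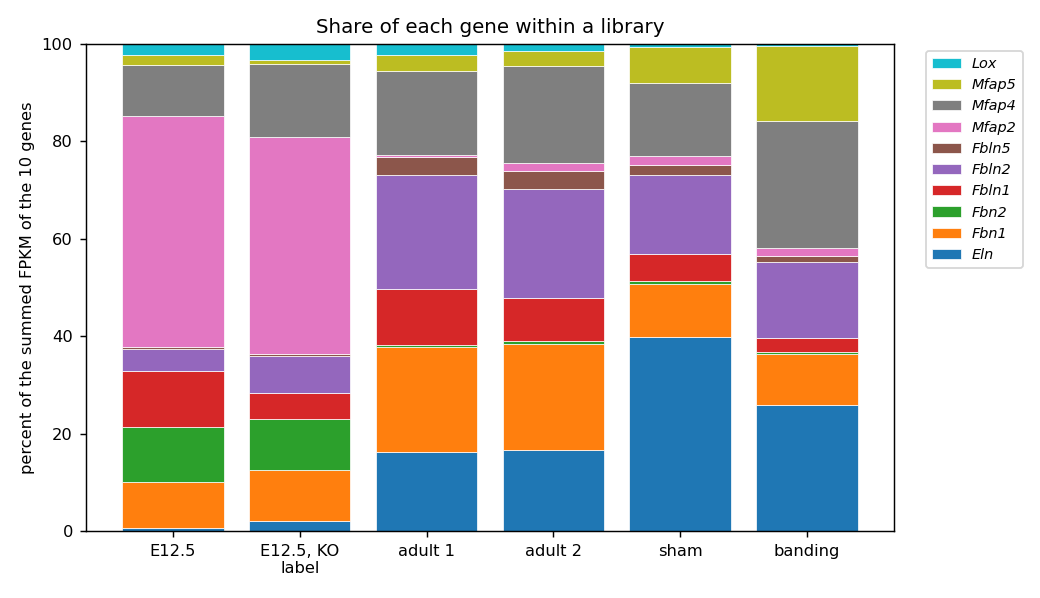
Share of each gene in the summed FPKM of the 10 genes, in percent, for each library. Mfap2 takes 47.4% in E12.5 and under 2% in adult, sham and banding, and Eln takes 0.598% in E12.5 and 39.9% in sham.

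The comparison of adult with E12.5 addresses how fibre genes differ between the mature and the embryonic heart. Against the single E12.5 library without the Gata4 KO label, genes of the embryonic microfibril fell and elastin rose. By limma with Benjamini-Hochberg adjustment, 7 of the 10 genes fell and 1 rose, while 48.4% of the 12658 genes tested fell and 23.4% rose. The median difference was -1.55 over the 10 genes and -0.51 over all genes tested. Rises made up 32.6% of calls as deposited and 42.2% to 47.2% after 3 other scalings, which put the median of all genes between -0.23 and -0.10. All 10 genes entered the test, but Fbn2, Mfap2 and Lox did so only through their level in E12.5, having under 1 FPKM in both adult libraries. The filter itself thus required these genes to be lower in adult, and their adjusted p is no separate support for a fall.

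Eln, at 1.21 in the embryonic library, rose to an adult mean of 2.76 ± 0.14 (SD, n = 2), a difference of 1.55 (SE 0.16, limma adjusted p = 0.0111). In FPKM this was 4.42-fold, with a counting interval of 3.58 to 5.50. The labelled knockout, also from E12.5 but not part of this test, stood at 2.97 as deposited, just above that adult mean. The rise of Eln thus rests on the E12.5 library without that label. Mfap2 fell by 6.27 (SE 0.29, limma adjusted p = 0.00455), to 0.44 ± 0.34 (SD, n = 2). Its FPKM in E12.5 was 280-fold that of the pooled adult libraries, with a wide interval of 152 to 584, since adult replicate 1 held 2 reads. Fbn2 fell by 4.45 (SE 0.12, limma adjusted p = 0.00398), a 138-fold difference in FPKM with an interval of 104 to 188. Adult thus held few transcripts of either gene. Fbn1 fell by 1.35 (SE 0.13, limma adjusted p = 0.0102), 2.75-fold in FPKM.

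Of the fibulins only Fbln1 passed the test in the fit of deposited values. Fbln1 fell by 2.52 (SE 0.13, limma adjusted p = 0.00515) and Lox by 1.83 (SE 0.14, adjusted p = 0.00734). Mfap4 fell by 1.66 (SE 0.21, limma adjusted p = 0.0150) and Mfap5 by 1.44 (SE 0.11, adjusted p = 0.00725). Fbln2 had an adult mean of 3.17 ± 0.09 (SD, n = 2) beside 3.43 in E12.5. Fbln5 had one of 1.21 ± 0.10 (SD, n = 2) beside 1.01. Neither passed, with limma adjusted p = 0.157 and 0.215. Under other scalings the difference of Fbln2 changed sign, and that of Fbln5 passed after median-of-ratios scaling (0.43, limma adjusted p = 0.0444). Mfap4 did not pass when the filter on low values was left out (limma adjusted p = 0.0696). Marker levels also differed, and not all one way within a list. Smooth muscle markers summed to 542 FPKM in E12.5 and 253 and 272 in adult, with Acta2 at 376 against 130 in each adult library and Cnn1 at 107 against 4.07 and 4.76. In both adult libraries 3 of these 6 markers were higher than in E12.5, among them Myh11 at 42.9 and 51.8 against 0.057. Fibroblast markers summed to 45.2 in E12.5 and 91.2 and 110 in adult, while 2 of these 6, Pdgfrl and Tcf21, the latter at 23.0 against 1.48 and 2.04, were lower in both adult libraries. Epicardial markers summed to 82.0 against 8.33 and 6.10, with 5 of 5 lower in both adult libraries. The part of these markers in the result was not tested.

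**Figure D4:**
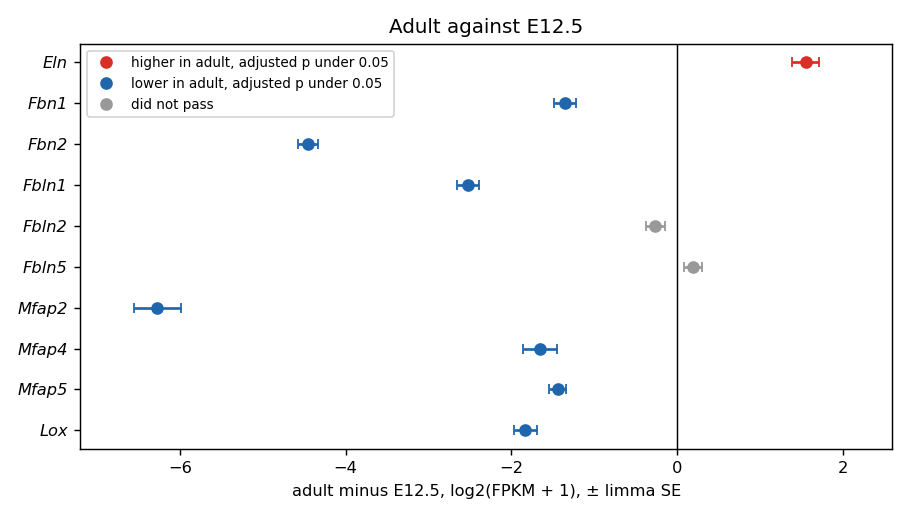
Difference between the adult mean (2 libraries) and E12.5 (1 library) on the log2(FPKM + 1) scale, with the limma standard error. Points to the left are lower in adult. Mfap2 and Fbn2 lie farthest left at -6.27 and -4.45, Eln lies at 1.55, and Fbln2 and Fbln5 lie close to 0.

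Counts in the pathway lists stand beside the 48.4% of all tested genes that fell and the 23.4% that rose. Of 19 tested genes that assemble or modify elastic fibres, 11 fell and 3 rose, with a median of -1.21. Vcan, a proteoglycan that binds fibulins and fibrillin, fell by 4.01 (SE 0.13) and the lysyl oxidase-like Loxl1 by 3.52 (SE 0.15). Adamtsl4, known for a part in microfibril formation, rose by 1.26 (SE 0.16) and the proteoglycan Bgn by 0.95 (SE 0.10). Of 11 proteases that can cleave elastin or matrix and their inhibitors, 8 fell and 2 rose. The inhibitor Timp1 fell by 4.16 (SE 0.12) and cathepsin K, Ctsk, by 2.85 (SE 0.09), while the inhibitors Timp4 and Timp3 rose by 4.28 (SE 0.15) and 2.28 (SE 0.26). Of 11 TGF-beta and integrin genes 8 fell and none rose, led by Itga5, which fell by 2.27 (SE 0.09), and Tgfbr1, by 2.01 (SE 0.21). Of 8 fibrillar collagens 7 fell, among them Col2a1 by 3.60 (SE 0.08) and Col5a1 by 2.93 (SE 0.19), and Col5a3 rose by 1.78 (SE 0.09). The adjusted p of these named genes by limma ranged from 0.00398 to 0.0148. Timp1, Ctsk and Col2a1 entered the test only through E12.5, and Timp4 and Col5a3 only through adult, so the filter itself required them to differ. Col2a1 was listed at 0 in both adult libraries.

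The comparison of banding with sham addresses how these genes differ after the loading operation. The microfibril glycoproteins Mfap5 and Mfap4 stood higher in the banded heart, Fbn1 and Fbln2 less so, and Eln little. A rule of size called genes with at least a 2-fold ratio of FPKM and at least 5 FPKM in the higher library. It called 4 of the 10 genes higher and none lower, against 1.48% higher and 0.754% lower among 11011 genes with at least 1 FPKM in either library. No p-value exists for 1 library against 1, and Fbn2 and Lox were under 1 FPKM in both. All 8 genes that were measured lay above 0, against 54.4% of genes. Of all calls, 66.3% were higher as deposited and 46.4% after scaling without the 50 highest genes.

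Mfap5 stood at 3.99 against 2.14 in sham, with 295 and 58 reads, a 4.39-fold ratio of FPKM with a 95% counting interval of 3.30 to 5.92. Mfap4 stood at 4.74 against 2.96, a 3.78-fold ratio (3.11 to 4.64). These 2 genes had the highest ratios of the 10. Fbn1, at 3.48 against 2.57, and Fbln2, at 4.01 against 3.06, both had a ratio of 2.06 (1.87 to 2.27 and 1.83 to 2.32) and lay just inside the rule. They were no longer called after each of 3 other scalings or when the 2-fold limit was set on the log2(FPKM + 1) scale, which left Mfap4 and Mfap5.

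Eln lay outside the rule at 4.73 against 4.25, a ratio of 1.41 (1.29 to 1.54) on 1349 and 826 reads. Its share of the 10 genes' sum went from 39.9% in sham to 26.0% in banding, while that of Mfap5 was 7.52% in sham and 15.2% in banding. Fbln5 had a ratio of 1.51 (1.09 to 2.11). For Lox (24 against 11 reads), Mfap2 (23 against 11), Fbn2 (54 against 30) and Fbln1 (136 against 103) the intervals held 1, so no difference was detectable at this depth.

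All 6 fibroblast markers stood higher in banding, with a summed level of 559.5 against 249 FPKM, of which Dcn alone made up 505 and 210. The macrophage markers stood at 32.4 against 20.6, with 5 of 5 higher. Smooth muscle markers summed to 138 against 137, but 5 of 6 were higher in banding, with Tagln at 21.4 against 16.0, and Smtn was lower at 30.2 against 52.5. Endothelial markers summed to 159 against 166, with 3 of 6 higher. No fibroblast, macrophage, smooth muscle or endothelial marker was at 0 in either library. The part of these shifts in the result was not tested.

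The wider pathway showed some of the same. Of 19 measured assembly genes 4 were called higher and none lower, with the proteoglycan Bgn at 8.23 against 6.12 and the lysyl oxidase-like Loxl2 at 3.78 against 2.30. Of 11 proteases and inhibitors 2 were called higher, Timp1 at 3.69 against 0.55 and the membrane protease Mmp14 at 4.50 against 3.54, and 1 lower, Timp4 at 3.14 against 4.35. In the TGF-beta and integrin list 1 of 10 was called, the ligand Tgfb2 at 3.04 against 1.89. Among 6 fibrillar collagens 4 were called higher, with Col1a1 at 6.11 against 4.08 and Col1a2 at 5.92 against 4.47. Their median difference was 1.29, against 0.03 over all genes and 0.69 over the 8 measured members.

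**Figure D5:**
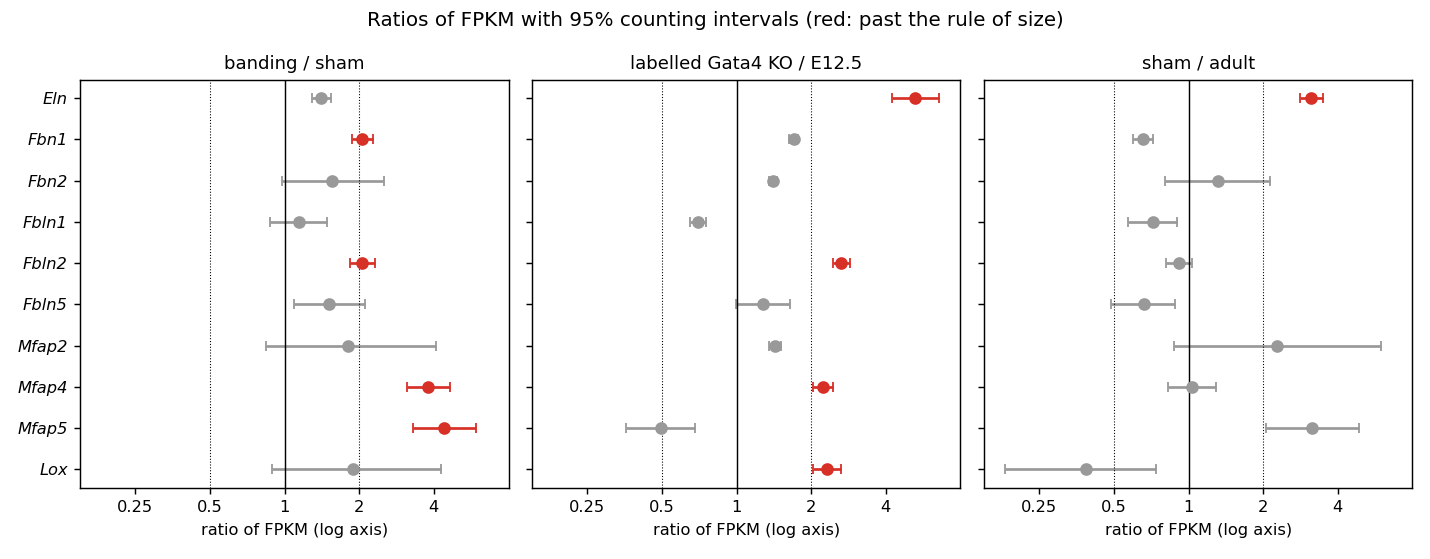
Ratio of FPKM for each gene in 3 comparisons, on a log axis with 95% counting intervals. Red points pass the rule of size, and dotted lines mark a 2-fold ratio either way. Mfap5 and Mfap4 lie at 4.39 and 3.78 in banding over sham, Eln at 5.23 in the labelled knockout over E12.5, and Eln at 3.13 in sham over adult.

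The labelled knockout and E12.5 form the comparison by genotype label. Elastin, Fbln2, Lox and Mfap4 stood higher in it, the fibrillins moderately so, and Mfap5 and Fbln1 stood lower. The rule of size called 4 of the 10 genes higher and none lower, against 1.26% higher and 0.688% lower among 12062 genes measured. In all, 8 of the 10 lay above 0, against 46.4% of measured genes. Of all calls, 64.7% were higher as deposited and 75.7% after scaling without the 50 highest genes. This comparison shares the E12.5 library with that of adult.

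Eln stood at 2.97 against 1.21, on 460 and 104 reads, a 5.23-fold ratio of FPKM with a counting interval of 4.22 to 6.54. Fbln2 had a ratio of 2.64 (2.44 to 2.86), Lox of 2.32 (2.04 to 2.63) and Mfap4 of 2.23 (2.04 to 2.45). All 4 also passed when the 2-fold limit was set on the log2(FPKM + 1) scale. After upper-quartile or median-of-ratios scaling 3 of them passed, without Eln, whose scaled level no longer reached 5 FPKM. Fbn1 lay just outside the rule at 1.70 (1.63 to 1.77), and Mfap2 and Fbn2 lay at 1.43 (1.35 to 1.51) and 1.41 (1.36 to 1.46).

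Going the other way, Fbln1 stood at 4.20 against 4.70, a ratio of 0.699 (0.647 to 0.755). Mfap5 stood at 1.73 against 2.50, a ratio of 0.497 (0.359 to 0.680), and lay under 5 FPKM in both libraries. It was the member with the largest difference downward here and the largest upward in banding, 2 comparisons that share no library. Fbln5, at 1.28 (0.994 to 1.64), had an interval that held 1.

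Other cell type markers also stood higher in the labelled knockout. Smooth muscle markers summed to 1116 against 542 FPKM with 5 of 6 higher, fibroblast markers to 80.8 against 45.2 with 6 of 6 higher, and epicardial markers to 130 against 82.0 with 4 of 5 higher. Of the smooth muscle sums, Acta2 alone made up 908 and 376. Myh11 was near 0 in both, at 0.390 against 0.057, and Cnn1 was slightly lower, at 104 against 107. Endothelial markers summed to 323 against 230 with 5 of 6 higher, and macrophage markers to 52.7 against 35.5 with 5 of 5 higher. The heart muscle markers summed to 23340 against 34000. Dpt, a fibroblast marker, was at 0 in E12.5. The part of these markers in the result was not tested.

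Of 20 measured assembly genes 4 were called higher and 1 lower in the labelled knockout. Adamtsl2, known for a part in microfibrils, stood at 3.21 against 1.09 and Vcan at 6.61 against 5.38, while the elastin interface protein Emilin2 stood at 3.74 against 4.70. The protease Mmp2 was called at 5.57 against 4.31, as the only one of 10 proteases and inhibitors, and Tgfb3, at 3.88 against 2.89, as the only one of 11 TGF-beta and integrin genes. Of 7 fibrillar collagens 3 were called, with Col3a1 at 6.50 against 5.13 and Col1a1 at 6.13 against 5.05.

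Sham was set beside adult because both stand for hearts without banding, and it is also the control of banding. Eln was the 1 gene of the 10 that the rule called, and it was higher in sham, against 3.74% of 11582 measured genes called higher and 25.2% called lower. Of the 7 genes measured 3 lay above 0, against 30.8% of genes. Its ratio was 3.13 (2.81 to 3.50), with a level of 4.25 in sham and an adult mean of 2.76. After the 3 other scalings the difference was larger, up to 2.21 on the log2(FPKM + 1) scale. The median over all measured genes was -0.44 as deposited and between -0.05 and 0.15 after the other scalings, and the share of calls that were higher was 12.9% and 39.2% to 55.9%. Mfap5 had a similar ratio of 3.15 (2.06 to 4.88) but stood at 3.40 FPKM in sham, under the limit of 5. Lox, under 1 FPKM in sham and both adult libraries, was not among the 7 genes measured. As deposited it lay lower in sham, at 0.385 (0.183 to 0.741), on 11 reads against 35 and 24. Its log2 difference of -0.40 kept its sign but shrank to between -0.28 and -0.20 after 3 other scalings. The interval holds for the deposited scaling only. Fbn1, Fbln1, Fbln2 and Fbln5 lay lower as deposited, and each changed sign under at least 1 other scaling.

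Within each library, where scaling plays no part, the ratio of Eln to Fbn1 was 3.65 in sham (3.28 to 4.06) and 2.50 in banding (2.32 to 2.69). In adult it was 0.750 (0.650 to 0.864) and 0.771 (0.675 to 0.880), in the labelled knockout 0.193 and in E12.5 0.0627. The intervals of sham and adult did not overlap. This pair was chosen after the values were seen. Marker sums compare libraries, so the deposited scaling does play a part in them. Fibroblast markers summed to 249 FPKM in sham and 91.2 and 110 in adult, with 4 of 6 higher in sham. Of these sums Dcn alone made up 210 in sham and 65.3 and 80.8 in adult, and Tcf21 and Pdgfrl were lower in sham. Smooth muscle markers summed to 137 in sham and 253 and 272 in adult, with 1 of 6 higher. The ratio of sums, sham over adult, was 0.521 for smooth muscle, 0.524 for heart muscle, 0.644 for endothelial and 0.492 for macrophage markers. It was 2.47 for fibroblast and 1.8 for epicardial markers. Their part in the difference was not tested.

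Counts of other pathway genes in sham beside adult are read against the 3.74% of all genes called higher and the 25.2% called lower. The rule called 2 of 18 assembly genes higher, Adamts10 (4.58, beside adult levels of 2.16 and 2.30) and the procollagen protease Bmp1 (3.65, beside 1.85 in each adult library). It called 1 lower, the latent TGF-beta binding protein Ltbp1, at 2.28 and at 3.07 and 3.32. Of 10 proteases and inhibitors 2 were called lower, Ctsb and Timp3, and of 10 TGF-beta and integrin genes 2 were called lower, Itgb1 and Tgfbr2, in each case a share below that of all genes. Of 6 fibrillar collagens 3 were called higher, with Col1a2 at 4.47 in sham and 3.06 and 3.43 in adult.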

How the data were processed

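The files deposited by the authors give 1 log2(FPKM + 1) value per gene symbol and library, and no coordinates. The tools named for the series, per the submitters' processing notes, are MACS 1.4, BWA 0.5.9, HTSeq 0.5.3, TopHat 1.4 and CASAVA 1.8.2, with build mm9. Their role in these values is not given. The libraries began from 2 µg of pooled RNA selected for poly(A) tails and primed with random hexamers, per the labels' protocols.

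The log2 scale was read from the values, because undoing it put low values in whole-number ratios between libraries. Whole reads, within 0.001 of a read, were recovered for 100% of 98043 values above 0. They give the depths and the exact 95% conditional binomial intervals, which cover counting error only. Counting does not separate near-identical copies.

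The test of adult against E12.5 used limma (version 3.58.1, R 4.3.3) on log2 values with a mean-variance trend. It took the 12658 genes that reached 1 FPKM in any of the 3 libraries. Residual degrees of freedom were 1, from the adult pair, and prior ones 1.535. The single embryonic library was taken to vary as adult does. Comparisons against a single library used the rule of size, which counted 38 genes (0.349%) between the adult libraries. The rule uses the ratio of FPKM without a pseudocount. Differences in log2(FPKM + 1) understate changes of low genes.

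The members and lists were chosen with earlier results of these data known. All members are named. From each pathway list, up to 2 called genes per direction are named by size of difference. Of 24 assembly entries 23 matched. No sequence of Fbn2 or Lox was used. Python 3.11.15 and scipy 1.17.1 were used, and motif matches were sought on both strands.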

Additional observations from a re-analysis of the deposited data

How the results depend on the processing

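For adult against E12.5, each member that rose or fell kept its sign under every alternative that gave it a value, including each adult library alone, where 1 library against 1 has no test. With a filter at 5 FPKM Mfap5, Lox and Fbln5 were not tested, which left 5 members that fell. Without a filter on low values Mfap4 did not pass. Fbln2, which did not pass, changed sign, to 0.17 after upper-quartile scaling, 0.19 after median-of-ratios scaling and 0.0449 without the 50 highest genes. The members that rose numbered 2 after median-of-ratios scaling. The share of calls that were rises was 32.6% as deposited and 42.2% to 47.2% after other scalings. For banding against sham, 2 members were called after upper-quartile scaling, 2 after median-of-ratios scaling, 2 without the 50 highest genes and 2 with the 2-fold limit on the log2(FPKM + 1) scale, a setting chosen after seeing the data. Genes lower in banding numbered 83 as deposited, 125 after upper-quartile scaling, 164 without the 50 highest genes and 51 with that limit. At 1.5-fold 484 were higher and 264 lower, and with at least 1 FPKM 398 and 256, against 163 higher as deposited. For the labelled knockout, where 152 genes were higher and 83 lower, 53 were lower without the 50 highest genes, 470 and 379 were called at 1.5-fold, and 428 and 205 with at least 1 FPKM, which also called 1 member, Mfap5, lower. For sham against adult, where 433 genes were higher and 2915 lower, upper-quartile scaling gave 1499 and 1311, median-of-ratios scaling 1108 and 1719, and scaling without the 50 highest genes 1550 and 1224. At 1.5-fold 746 were higher, with 1 member, Fbn1, lower, and with at least 1 FPKM 1263 were higher. Members higher in sham numbered 2 after upper-quartile scaling, 2 without the 50 highest genes and 2 with at least 1 FPKM, each time Eln and Mfap5. The cause was not tested. In sham against adult, among differences that were not called, Fbn1, Fbln1, Fbln2 and Fbln5 changed sign under other scalings, and Mfap4 without adult replicate 1. A planned count test on the recovered reads was not run. No paired analysis was possible because the adult replicate numbers have no partner in another group. Depth limits Mfap2, Lox and Fbn2 in adult, sham and banding, where they held 2 to 54 reads.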

Other observations

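The genes whose levels followed those of Eln most closely over the 6 libraries, among 8641 named genes that reached 5 FPKM in any library, were Arap1, Ebf1 and Nes, with Pearson's r of 0.98, 0.98 and 0.97. Ebf1, a transcription factor, stood at 2.53 in E12.5, 3.15 in the labelled knockout, 3.34 and 3.50 in adult, 4.18 in sham and 4.47 in banding, the same order as Eln except that Eln in the labelled knockout lay above adult. For Fbn1 they were Pmp22, Tnfaip1 and Cda, at 0.9952, 0.9922 and 0.9917, and for Mfap5 they were Prrg2, Fam160b2 and Drap1, each at 0.98. The 6 points include an adult pair and libraries that differ in their share of reads on genes, and the correlations describe these libraries only.

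Elastin and collagen did not keep a fixed proportion. The ratio of Eln to Col1a1 in FPKM, a pair chosen after its values were seen, was 0.0406 in E12.5 and 0.0987 in the labelled knockout. It was 0.788 and 0.739 in adult, 1.14 in sham and 0.374 in banding. Lox stood at 3.73 times the FPKM of Eln in E12.5, 1.65 times in the labelled knockout, 0.145 and 0.0862 times in adult, 0.0140 times in sham and 0.0187 times in banding.

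Over the 6 libraries Fbn2 and Mfap2 had the highest correlation of the 45 pairs among the 10 genes, with an r of 0.9969. Eln and Fbln1 had the lowest, at -0.74.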
